A study of Caenorhabditis elegans with 2 samples.

Results

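The genes described here are 56 protein-coding genes of lipid metabolism in Caenorhabditis elegans, out of 19973 protein-coding genes on the 6 nuclear chromosomes. They were taken from a fixed list of names for fatty acid synthesis, oxidation, lipases, lipid-binding proteins and their regulators. The list was chosen with earlier results of these data known. All 56 names matched the Ensembl annotation of WBcel235 by symbol. For each gene the strongest deposited region with its summit within 1 kb of the gene's 5' end was read from a list made from pooled reads and from the list of each library.

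NHR-76, a nuclear hormone receptor, was immunoprecipitated with its bound chromatin from whole L1 larvae of mixed sex, and the DNA was sequenced (ChIP-seq). Both libraries, biological replicates 1 and 2, form 1 group of strain OP203, which carries unc-119(ed3) III and the transgene wgIs203, so that NHR-76 bears GFP-FLAG at its C-terminus. The labels name neither the promoter of the transgene nor how many lines were tested, and no untagged or second group was analysed here. There is thus no condition to compare, and counts of the lipid genes are set beside the same counts over all protein-coding genes as descriptions, with no test.

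Fat in C. elegans is stored mainly in the intestine and hypodermis. Acetyl-CoA carboxylase and fatty acid synthase build saturated fatty acids, which elongases lengthen and desaturases turn into mono- and polyunsaturated ones. Acyl-CoA synthetases activate fatty acids for use, mitochondria and peroxisomes shorten them by oxidation, lipases release them from stored fat, and lipid-binding proteins carry them. NHR-49, NHR-80, NHR-66, SBP-1 and the Mediator subunit MDT-15 regulate many of these genes, and NHR-76 itself is known for a part in serotonin-driven fat loss.

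A few of the regions are shown first as 151 bases centred on the summit. They are in RefSeq's WBcel235 sequence, which is the same assembly as ce11. Each is written 5' to 3' on the strand of the gene. Capitals mark any match to the nuclear receptor half-sites AGGTCA and AGTTCA, the GATA site TGATAA or the GC box GGGCGG, on either strand. Shown are 4 of the 6 genes with the strongest pooled regions, and dhs-28, whose summits in the libraries lay closest together. The window of elo-6 (chrIV:5388371-5388521, minus strand) has its summit in a coding exon, those of cpt-2 (chrIV:11179348-11179498, plus strand) and acs-2 (chrV:15566536-15566686, plus strand) are intergenic, that of sbp-1 (chrIII:11442278-11442428, minus strand) is intronic, and that of dhs-28 (chrX:6818601-6818751, plus strand) has its summit in a coding exon.
elo-6: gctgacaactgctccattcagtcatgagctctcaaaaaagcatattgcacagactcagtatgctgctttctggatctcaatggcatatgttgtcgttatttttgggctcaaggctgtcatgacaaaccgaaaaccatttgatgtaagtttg
cpt-2: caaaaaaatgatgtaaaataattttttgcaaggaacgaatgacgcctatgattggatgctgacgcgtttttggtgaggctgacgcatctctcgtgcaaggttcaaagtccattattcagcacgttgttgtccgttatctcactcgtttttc
sbp-1: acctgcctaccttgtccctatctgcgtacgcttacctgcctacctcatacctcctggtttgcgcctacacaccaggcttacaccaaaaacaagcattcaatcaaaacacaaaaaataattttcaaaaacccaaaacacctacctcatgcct
acs-2: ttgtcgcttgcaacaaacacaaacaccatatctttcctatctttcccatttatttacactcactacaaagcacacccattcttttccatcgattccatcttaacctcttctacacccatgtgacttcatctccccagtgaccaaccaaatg
dhs-28: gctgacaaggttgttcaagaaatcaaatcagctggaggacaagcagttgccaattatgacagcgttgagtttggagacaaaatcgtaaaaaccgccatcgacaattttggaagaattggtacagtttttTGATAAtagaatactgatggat
Only the dhs-28 window, a TGATAA near its 3' end, held a match among these 5.

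No thresholded peak lay within 1 kb of any of the 56 genes, where 1.03% of all protein-coding genes had one. A single gene would be 1.79% of the 56, so a count of 0 is near the share over all genes. The genes were also chosen with earlier results of these data known, so the count of 0 may follow from that choice. The thresholded list is the authors' set of 248 peaks, labelled as thresholded by IDR (irreproducible discovery rate). The weakest had a pooled signal of 30.8 in the caller's units, which is not a stated cut-off. The strongest lipid gene, fasn-1, which encodes fatty acid synthase, reached 22.1, and elo-6, an elongase of branched-chain fatty acids, reached 21.6. The next were nhr-49 at 17.4 and cpt-2, a carnitine palmitoyltransferase, at 17.1, and the other 30 listed genes lay between 7.91 and 14.7. All signals named here are the authors' values for the region.

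Most of the genes had a weaker region in the lists of 30000 that also hold background. In the pooled list 34 of the 56 genes (60.7%) had a region within 1 kb, against 51.7% of all genes. In the list of replicate 1 it was 35 (62.5%, against 51% of all genes) and in that of replicate 2 it was 32 (57.1%, against 50.9%). All 3 lists held a region at 17 genes (30.4%, against 25.9%), and none of them at 8 genes (14.3%, against 24.9%). The count of 17 depended on the window: it was 8 within 500 bp, 36 within 2 kb and 4 with upstream summits only. Shares over all genes were not counted in those settings. It was 7 where a region of each library had to overlap the pooled one (20.6% of the 34, against 32.6% of all listed genes). The genes in none of the 3 lists were fat-4, mdt-15, dgat-2, acs-20, ech-1.1, acox-1.1, lipl-5 and lbp-8. Where a region was listed in the pooled list, the median signal was 10.6 over the lipid genes and 11.0 over all genes, which is 1.03 and 1.07 times the median listed region. In replicate 1 the medians were 1.08 times the median region over the lipid genes and 1.07 over all genes, and in replicate 2 they were 1.14 and 1.07. The lipid genes were thus slightly below all listed genes in the pooled list and slightly above them in each library, and these differences were not tested.

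**Figure D1:**
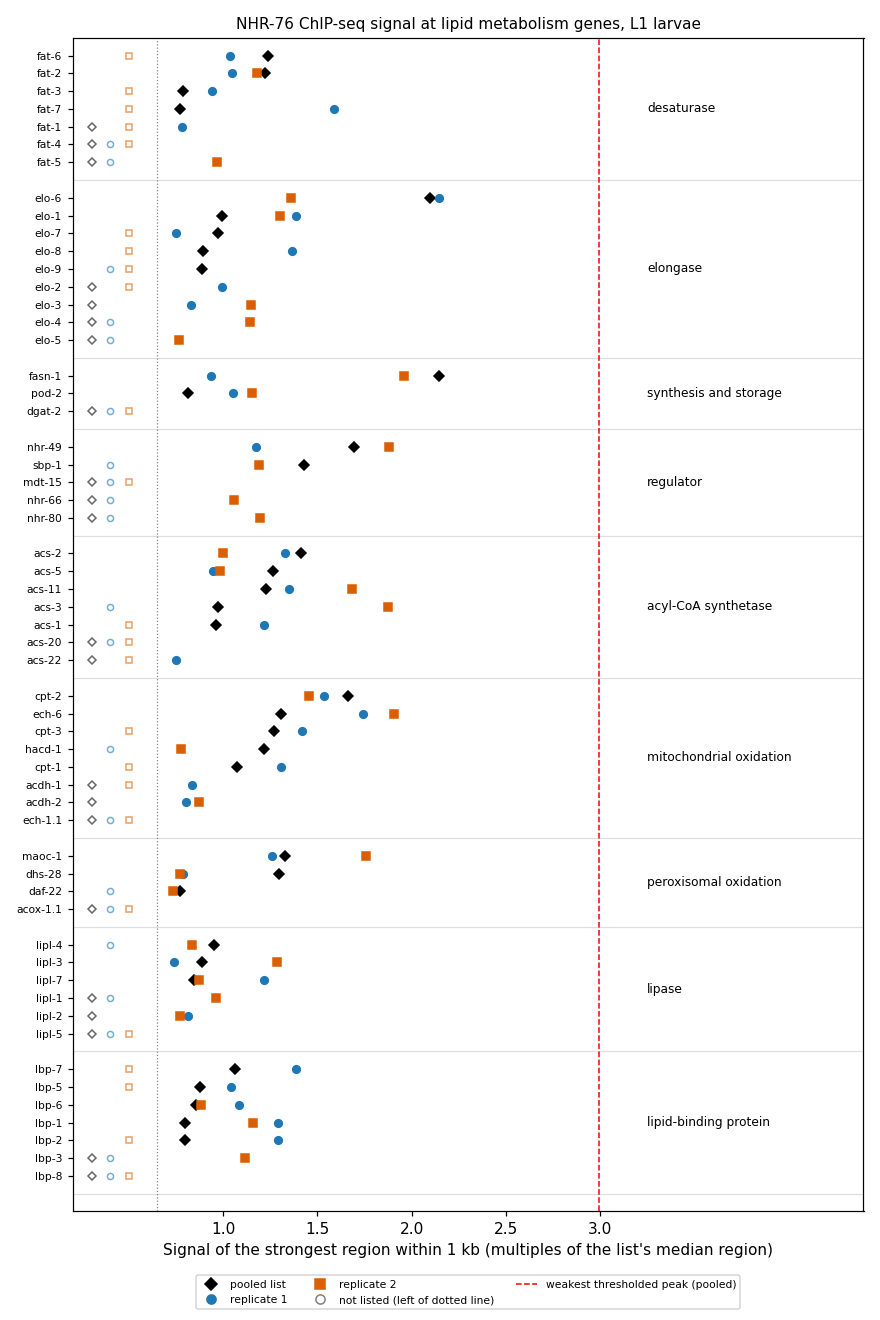
Signal of the strongest region within 1 kb of the 5' end of each of the 56 genes, in multiples of the median region of the same list, for the pooled list (diamonds), replicate 1 (circles) and replicate 2 (squares); open symbols left of the dotted line mark genes not listed, and genes are ordered by pooled signal within each functional group. Every pooled value lies left of the dashed line of the weakest thresholded peak at 2.99 times the median region.

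The deposited q-value of the region was at or below 0.05 at 1 of the 56 genes in the pooled list (1.79%, against 2.51% of all genes). This gene was fasn-1 (q = 0.0486, pooled rank 690). In replicate 1 it was 1 gene (1.79%, against 2.48%), elo-6 with q = 0.0427. In replicate 2 it was 4 genes (7.14%, against 5.45%), fasn-1 with q = 0.0256, ech-6 with 0.0308, nhr-49 with 0.0330 and acs-3 with 0.0336. No gene met the threshold in both libraries, a count that was not made over all genes. With 1 gene in replicate 1 and 4 in replicate 2, it says little about the lipid genes. The counts per list are near the share over all genes in each list.

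The start of synthesis held both the strongest and some of the weakest values. At fasn-1 (WBGene00009342) the region lay in an intron, 406 bp downstream of the 5' end. Its pooled signal was 22.1, and the libraries had 6.09 in replicate 1 and 11.9 in replicate 2, which is 0.936 and 1.96 times the median region (mean 1.45 ± 0.722 SD, n = 2 libraries). Its pooled height thus went with replicate 2, where it ranked 1308, against 17753 in replicate 1, although the summits lay 88 bp apart. pod-2, the acetyl-CoA carboxylase that starts fatty acid synthesis, had a pooled signal of 8.34 at rank 25604, with 1.05 times the median region in replicate 1 and 1.15 in replicate 2. dgat-2, an acyltransferase of triglyceride storage, was in none of the 3 lists.

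Among the 9 elongases, 5 were listed in the pooled list, with signals from 9.11 to 21.6. The elo-6 region (WBGene00001244), shown above, had its summit in a coding exon 113 bp downstream of the 5' end and ranked 773 (q = 0.0563). Replicate 1 gave 13.96 there and replicate 2 gave 8.24, or 2.15 and 1.36 times the median region (1.75 ± 0.558 SD, n = 2), with summits 97 bp apart. Both libraries were above their median region, replicate 1 by more. elo-5, which works with elo-6 on branched-chain fatty acids, had no pooled region within 1 kb and 0.766 times the median region in replicate 2 alone. elo-1, which lengthens polyunsaturated fatty acids, had 1.38 times in replicate 1 and 1.30 in replicate 2 (1.34 ± 0.06 SD, n = 2), but the summits lay 1025 bp apart, on opposite sides of the 5' end, and the pooled rank was 15338. Of the others, elo-7, elo-8 and elo-9 were in the pooled list at ranks 16397 to 20946, elo-3 was in both libraries but not the pooled list, and elo-2 and elo-4 were each in 1 library.

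Of the 7 desaturases, 4 were in the pooled list, none above 12.7. fat-6, a stearoyl-CoA desaturase that makes oleic acid, had the strongest region, with a pooled signal of 12.7 in a coding exon 580 bp downstream. It was listed in replicate 1 at 1.03 times the median region and not in replicate 2. fat-2, which turns oleic into linoleic acid, had 12.6 in an intron, with 1.05 and 1.18 times the median region in replicates 1 and 2 at summits 1436 bp apart. fat-7, the close paralog of fat-6, had a region 51 bp upstream of its 5' end that ranked 2918 in replicate 1 (1.59 times the median region) but 28661 in the pooled list (signal 7.91), and replicate 2 listed none. fat-3, a desaturase of polyunsaturated fatty acids, had a pooled signal of 8.09, with 0.941 times the median region in replicate 1 and no region in replicate 2. fat-1, the omega-3 desaturase, was listed in replicate 1 only (0.783 times) and fat-5, the palmitoyl-CoA desaturase, in replicate 2 only (0.968 times). fat-4, the desaturase that makes arachidonic and eicosapentaenoic acid, was in no list. Thus 5 desaturases were listed in replicate 1 and 2 in replicate 2.

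Of the 5 regulators, 1 was listed in replicate 1 and 4 in replicate 2. Over all genes the libraries listed nearly equal shares, with 4220 genes in replicate 1 and not replicate 2 and 4212 the other way round, and with so few genes the counts per group are descriptions. nhr-49 (WBGene00003639), an HNF4-like receptor that promotes oxidation and desaturation of fatty acids, ranked 1961 in the pooled list with a summit 317 bp upstream of the 5' end. Its libraries had 1.17 and 1.88 times the median region in replicates 1 and 2 (1.53 ± 0.498 SD, n = 2). These were other places, 138 bp and 635 bp downstream, and at the pooled region itself replicate 1 listed nothing and replicate 2 had 0.867 times. sbp-1, the worm's SREBP and a driver of fatty acid synthesis, had 14.7 in an intron 213 bp downstream (pooled rank 4101) and 1.19 times the median region in replicate 2, with no region in replicate 1. nhr-80 and nhr-66, receptors that work with or beside NHR-49, were listed in replicate 2 alone, at 1.19 and 1.06 times. mdt-15 was in no list.

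Of the 7 acyl-CoA synthetases, 5 were in the pooled list, at 9.91 to 14.6. acs-2, a mitochondrial enzyme induced by fasting through NHR-49, had 14.6 in intergenic sequence 783 bp upstream of its 5' end. At that place replicate 1 had 1.33 and replicate 2 had 0.79 times the median region (1.06 ± 0.381 SD, n = 2). acs-5 had a pooled signal of 13.0, and its libraries were close to their median region, at 0.948 and 0.983 times. acs-11 had 12.6, with 1.35 and 1.69 times the median region in replicates 1 and 2 at summits 859 bp apart. acs-3 had 9.99 and acs-1, which activates branched-chain fatty acids, had 9.91 in its 5' UTR. acs-3 stood at rank 1564 in replicate 2 (1.88 times) and at 16369 in the pooled list, and replicate 1 did not list it. acs-22 was listed in replicate 1 alone (0.749 times).

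Of the 8 genes of mitochondrial import and oxidation, 5 were in the pooled list. cpt-2 (WBGene00011122) had an intergenic region 222 bp upstream of its 5' end with a pooled signal of 17.1 (rank 2148), 9.99 in replicate 1 and 8.83 in replicate 2. As multiples of the median region the libraries were 1.54 and 1.46 (SD 0.0571, n = 2), the closest pair among the 4 genes with the strongest pooled regions. The library summits there were 219 bp apart. cpt-3 had 13.0 in an intron 868 bp downstream, where overlapping regions had 1.42 and 0.995 times the median region in replicates 1 and 2, and cpt-1 had 11.0 in intergenic sequence 626 bp upstream. ech-6, an enoyl-CoA hydratase, ranked 1909 in replicate 1 and 1476 in replicate 2 (1.74 and 1.91 times the median region, 1.82 ± 0.118 SD, n = 2), the highest mean over both libraries of any of these genes, yet only 5908 in the pooled list with a signal of 13.4. The summits were 604 bp downstream and 164 bp upstream, 768 bp apart. hacd-1, a hydroxyacyl-CoA dehydrogenase, had 12.5 in the pooled list and 0.774 times the median region in replicate 2 alone. acdh-1 and acdh-2, acyl-CoA dehydrogenases, were not in the pooled list and stayed at or below 0.869 times the median region in the libraries.

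Peroxisomal oxidation shortens the side chains of ascaroside pheromones, and 3 of its 4 genes were in the pooled list. maoc-1, an enoyl-CoA hydratase, had 13.7 at 53 bp upstream of its 5' end. The summit also lay 582 bp upstream of the divergent gene acdh-12, which encodes an acyl-CoA dehydrogenase. Replicate 2 had 1.76 times the median region there (rank 2075), and the region of replicate 1 was elsewhere, 890 bp downstream. dhs-28, a hydroxyacyl-CoA dehydrogenase, showed the reverse of ech-6. Its libraries were weak, at 0.787 and 0.77 times the median region (ranks 25582 and 26420), but their summits lay 5 bp apart, and the pooled signal of 13.3 ranked 6062. daf-22, a thiolase, had 7.95, at rank 28403.

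The lipases and lipid-binding proteins had the lowest median pooled signals. The libraries shared this for the lipases, which were lowest in replicate 1 at 0.815 times the median region and next to lowest in replicate 2 at 0.871, but not for the lipid-binding proteins. In replicate 1 the median of the lipid-binding proteins, 1.29 times the median region, was exceeded only by that of mitochondrial oxidation at 1.36. That median is the value of 1 region counted for both lbp-1 and lbp-2, and its place in the order rests on this double count. In replicate 2 the lowest group was peroxisomal oxidation at 0.770. Of the 6 lipases 3 were in the pooled list, with a median signal of 9.14, and lipl-4, a lysosomal lipase, was strongest at 9.80 with a summit in a coding exon of the neighbour K04A8.20. Replicate 2 listed lipl-4 at 0.833 times the median region and replicate 1 did not. lipl-3 had 9.14 and lipl-7 had 8.70. lipl-1 was in replicate 2 alone, and lipl-2 was in both libraries and not in the pooled list. Of the 7 lipid-binding proteins 5 were in the pooled list, with a median of 8.82 and a highest value of 10.9 at lbp-7. lbp-7 had 1.39 times the median region in replicate 1 and no region in replicate 2. Its pooled summit was intergenic, 707 bp downstream of the 5' end and beyond the 3' end of the gene. It lay nearer to the 5' end of T22G5.3, at 648 bp. lbp-1 and lbp-2 shared 1 region, so that the 34 genes rest on 33 distinct regions. lbp-3 was in replicate 2 alone. Median pooled signals of the other groups were 9.98 for elongases, 10.3 for desaturases, 12.6 for acyl-CoA synthetases, 13.0 for mitochondrial and 13.3 for peroxisomal oxidation, 15.2 for the start of synthesis and storage and 16.1 for regulators. The last 2 medians rest on 2 genes each, and no group had over 5 listed genes, so this order is a description.

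**Figure D2:**
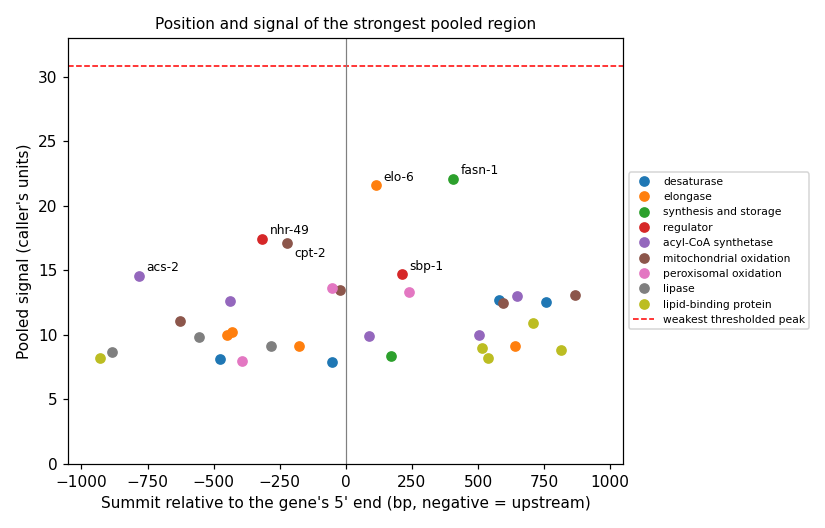
Pooled signal in the caller's units against the position of the summit relative to the gene's 5' end in bp (negative is upstream) for the 34 genes with a pooled region within 1 kb, coloured by functional group. fasn-1 and elo-6, both downstream of the 5' end, are highest at 22.1 and 21.6, and all points lie below the dashed line at 30.8.

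Summits lay to either side of the 5' end. Of the 34 genes with a pooled region, 17 had the summit upstream (50%, against 52.7% of all listed genes). The median distance was 463 bp in either direction (433 bp over all listed genes). The region shared by lbp-1 and lbp-2 is counted for each gene, downstream of lbp-1 and upstream of lbp-2. By position, 15 summits were intergenic (44.1%, against 37.3% of all listed genes), 9 in coding exons (26.5%, against 30.8%), 8 in introns (23.5%, against 21.0%), 1 in a 5' UTR and 1, near elo-7, in a pseudogene. None of the regions overlapped a non-coding RNA gene, which was not counted over all listed genes. Summits in an exon of a non-coding gene made up 2.15% over all listed genes, so 0 is near that share. The median GC content was 37.0%, the same as over all listed genes, and the highest were cpt-3 at 50.3% and sbp-1 at 48.8%. The summit was also within 1 kb of another protein-coding 5' end in 10 cases, so the gene it belongs to cannot be told apart there. These were fat-6, cpt-2, maoc-1, lipl-3, lipl-4, lipl-7, lbp-1, lbp-2, lbp-5 and lbp-7, with the region of lbp-1 and lbp-2 counted for each. Such cases were not counted over all listed genes. Of the 20-base words of each region, at most 16.1% (cpt-2) had a further exact copy in the genome, and the median was 1.31%, against 0.984% over all pooled regions.

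TGATAA was found on either strand in 13 of the 33 regions (39.4%, against 27.2% of all 30000 pooled regions of the same length), among them those of fat-2, fat-6, maoc-1 and ech-6. AGTTCA was in 9 (27.3%, against 20.4%), AGGTCA in 3 (9.09%, against 8.78%), those of fat-7, acs-3 and cpt-1, and GGGCGG in 1 (3.03%, against 6.05%), that of fat-7. None of the 4 motifs was in the region of fasn-1, elo-6, nhr-49, cpt-2, sbp-1 or acs-2, the 6 strongest. These matches are descriptions of letters in a window. The 33 regions all lay within 1 kb of a gene's 5' end, and the 30000 were not limited in this way. A share over regions near 5' ends alone was not counted, for the motifs or for the 20-base words above.

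The libraries placed a region at the same spot for a minority of these genes, as over all listed genes. Of the 34 genes with a pooled region, 7 had it overlapped by a listed region of each library (20.6%, against 32.6% of all listed genes). They were elo-6, fasn-1, acs-2, acs-5, cpt-2, cpt-3 and dhs-28. At 23 more genes a region of 1 library overlapped the pooled one, and at elo-7, elo-9, daf-22 and lbp-5 no library region did. Of all 10328 listed genes, 5958 had an overlap in 1 library and 1008 in none. At the 20 genes listed in both libraries, the strongest summits of the libraries lay a median of 535 bp apart, 5 pairs within 150 bp and 11 over 500 bp. These distances were not counted over all genes, so they are not a trait of the lipid genes. Over these 20 genes the signals, as multiples of the median region, had a Spearman's rho of 0.522 and a Pearson's r of 0.47 on the log2 scale. Over the 5957 protein-coding genes listed in both libraries they were 0.230 and 0.39. The points share libraries, and neighbouring genes can share a region, so these are descriptions.

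**Figure D3:**
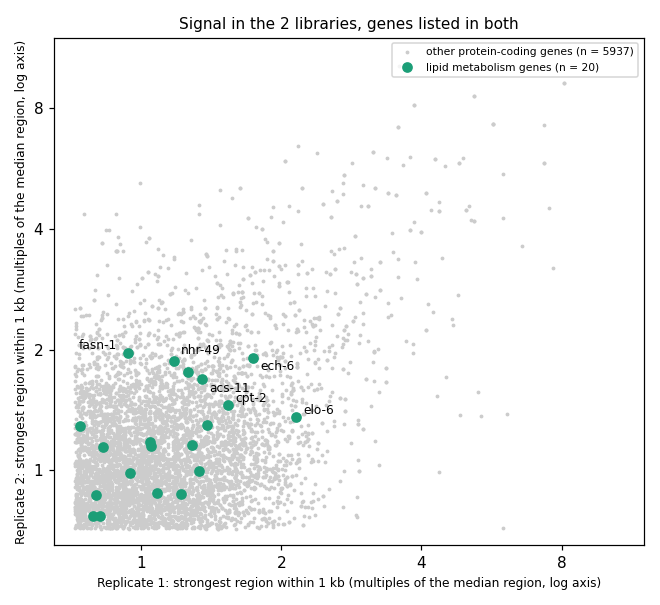
Signal of the strongest region within 1 kb in replicate 1 (x axis) and replicate 2 (y axis), each in multiples of that library's median region on log axes, for the 20 lipid genes (green) and the other protein-coding genes (grey) among the 5957 listed in both. The lipid genes lie within the lower left part, and ech-6 and elo-6 have the highest means over both libraries, at 1.74 and 1.91 times and at 2.15 and 1.36 times.

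Within 2 kb of the 5' end, 44 of the 56 genes had a pooled region, with a median signal of 12.4, and 36 were in all 3 lists. The same counts over all protein-coding genes were not made at 2 kb. A wider window can only raise such counts for any gene set, so these are not traits of the lipid genes. From 1 kb upstream to the 3' end, a window chosen after the data had been seen, 0 of the 56 genes had a thresholded peak (against 1.22% of all genes) and 1 had a pooled q-value at or below 0.05 (1.79%, against 3.24%), again fasn-1. Among genes whose strongest region in this window lay more than 1 kb from the 5' end, the highest were at the 3' UTR of nhr-49 (18.8, rank 1400) and in a coding exon of cpt-1 (18.3, rank 1567), followed by the 3' UTR of lipl-4 (16.8), a coding exon of elo-8 (16.4) and an intron of elo-5 (16.3). The strongest region within 2 kb of any of these genes, stronger than that of fasn-1, lay 1529 bp upstream of lipl-2 (chrV:9789876-9790199) with a pooled signal of 24.1 (rank 522, q = 0.0412). Overlapping regions had 1.92 times the median region in replicate 1 and 1.94 in replicate 2. The region overlapped the non-coding RNA gene F46B6.15, and its summit was nearer to another gene, 331 bp upstream of the zinc-finger gene ztf-7.

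A further 53 genes comprised other members of these enzyme and carrier families and the yolk protein genes vit-1 to vit-6, a family with no gene among the 56. Replicate 1 and replicate 2 each listed 49.1% of them, against 62.5% and 57.1% of the lipid genes and 51% and 50.9% of all genes. All 3 lists held 11 of the 53, 17 of the 56 lipid genes and 5174 of all 19973 genes. In the pooled list 34 of the 53 had a region (64.2%, against 60.7% of the lipid genes and 51.7% of all genes). Their median signal was 11.0, and the strongest was lbp-9, a lipid-binding protein, at 18.3. Of the 53, 0 had a pooled q-value at or below 0.05 (against 2.51% of all genes) and 0 had a peak (against 1.03%). Of 265 other nuclear hormone receptor genes 149 (56.2%) were listed, with a median of 10.7, 9 had such a q-value and 1 had a peak. Of 81 cytosolic ribosomal protein genes 77 (95.1%) were listed, with a median of 19.0, 23 had such a q-value and 12 had a peak. The median lipid gene region ranked 13869 in the pooled list and the median ribosomal one 1330. These are differences between lists of genes in 1 set of libraries and were not tested.

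**Figure D4:**
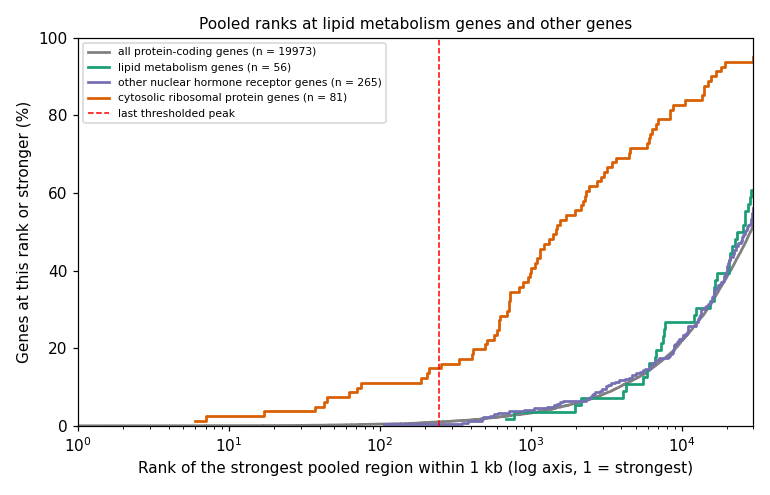
Cumulative share in percent of genes whose strongest pooled region within 1 kb has a given rank or a stronger one (log axis, 1 is strongest), for all protein-coding genes, the 56 lipid genes, other nuclear hormone receptor genes and cytosolic ribosomal protein genes. The lipid gene curve starts at rank 690, right of the dashed line of the last thresholded peak at 248, and runs near that of all genes, ending at 60.7% against 51.7%.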

How the data were processed

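Regions in the narrowPeak layout were deposited for 2 ChIP-seq libraries and for their pooled reads; per the library listings, each list was made from alignments and a control file, and the thresholded list from the pooled and both library lists. The caller, aligner, read numbers and thresholds, including the IDR cut-off of the thresholded list, are not given in the sources used here, so depth is unknown. The deposited signal is the authors' value in caller's units; the second deposited value was read as −log10 of a q-value, from the column order of the layout. Each list held 30000 regions, of 324 bp (pooled), 344 bp (replicate 1) and 310 bp (replicate 2).

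Coordinates are 1-based on ce11. Genes came from Ensembl release 115; 54 of the 56 genes had RefSeq coordinates within 100 bp. The strongest region with its summit within 1 kb (1000 bp) of the outer 5' end was kept for each gene, with pandas 2.3.3, numpy 2.4.6 and scipy 1.17.1. Signals were divided by the median region of their list; mean ± SD covers 2 libraries, for which separate cultures are not stated. The region assignment was tested on simulated data. No expression was measured, so the labelled tissue could not be checked.

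The members and lists were chosen with earlier results of these data known. Named in full are the 12 strongest members, those with a pooled q-value at or below 0.05 and the strongest of each functional group.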

Additional observations from a re-analysis of the deposited data

How the results depend on the processing

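The count of 0 thresholded peaks, near the share over all genes, was 0 in each of these settings: 500 bp, 2 kb, each library's own 248 strongest regions in place of the peaks, other transcripts' 5' ends, upstream summits only, the nearest gene alone, and the window to the 3' end (added with the data in view). Because the genes were chosen with earlier results of these data known, this 0 may follow from that choice in every setting. The number of genes with a pooled region (34) fell to 22 at 500 bp and to 23 with upstream summits only. It was 31 to 44 in the other settings. Shares over all genes were not counted at 500 bp, at 2 kb or upstream only. The number in all 3 lists (17) was 8 at 500 bp, 36 at 2 kb and 4 upstream only. It was 7 where the pooled region had to overlap one of each library, a setting also added with the data in view. The number with q at or below 0.05 (1) was 2 at 2 kb, where lipl-2 joins fasn-1, 0 upstream only, 0 at q of 0.01 or 0.001, and from 1 to 4 with a library left out (4 without replicate 1). The median signal (10.6) was 12.4 at 2 kb, 12.1 with other transcripts, 9.85 upstream only and 11.0 with the nearest gene. In the units of a single library it was 6.95 without replicate 1 and 7.04 without replicate 2. The regions of all 34 genes had a ce10 counterpart, with the same median.

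Counts per group rest on few genes. At 500 bp they were 3 acyl-CoA synthetases, 2 mitochondrial genes, 1 lipase and 2 lipid-binding proteins, and at 2 kb 8 elongases and 4 regulators. Upstream only there were 0 for the start of synthesis and storage, 2 acyl-CoA synthetases, 3 mitochondrial genes and 3 lipid-binding proteins, and with the nearest gene 3 lipid-binding proteins. With a library left out, desaturases ranged from 2 to 5, regulators from 1 to 4, lipases from 3 to 5 and lipid-binding proteins from 3 to 5. Of the 14 genes named in full, 9 moved by more than the spread of the libraries, or had no such spread, without replicate 1 and 9 without replicate 2; 3 without replicate 1 and 2 without replicate 2 had no region. The cause was not tested. The count in all 3 lists has no value with a library left out. No paired analysis was possible because there is 1 group. Unknown depth limits what the absence of a listed region says.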
